A study of Mus musculus with 10 samples.

Results

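Of 55359 genes counted in 10 bulk RNA sequencing libraries of mouse T cells, 18 were read at an appreciable level only where the cells had received mRNA for both single-chain IL-12 and decoy-resistant IL-18. They were chosen by their level in scaled counts (CPM, reads of a gene for every 1000000 reads in its library): at least 2 CPM in each library with both mRNAs and under 0.5 CPM in each of the other 8. Of 10687 genes at or above 2 CPM in both of those libraries, 24 passed, which is 0.225%. All 24 had a gene symbol, and 6 were set aside by the first letters of their symbols: Gcnt3, Il22, Il6, Timp3, Gstt4 and Slc7a11. The remaining 18 are Plagl1, Fam107a, Mylk2, Acox2, Tmem35a, Gpr83, Mmp13, Loxl4, Mmp10, Sorcs1, Frmpd4, Gm41386, Arhgef10l, Kcna4, Ermn, Slc6a5, Zfp964 and Hs3st1. Since the rule used all 10 libraries, the contrast between the mixture and the rest is described here without a test.

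The cells were pmel-1 lymphocytes from mouse spleen, whose transgenic T cell receptor recognises the melanoma antigen gp100. All groups were activated for 48 h with human gp100 and kept for a further 48 h with human IL-2. Then 4 groups of 2 libraries were electroporated and taken for RNA 24 h later: Mock, DRIL18 (mRNA for decoy-resistant IL-18), IL12 (mRNA for scIL-12) and the mixture of both. The remaining 2 libraries, NoEp, came from cells that were not electroporated and are labelled WT. The labels used here do not state which mRNA the Mock cells received, nor the age and sex of the mice. The labels call the libraries biological replicates without naming animals, so a p-value reflects only how these samples spread, which may be technical.

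IL-12 acts through a receptor that engages the kinases JAK2 and TYK2 and the transcription factor STAT4. IL-18 acts through MyD88 and IRAK kinases on NF-κB, AP-1 and p38. The combination is known for very high IFN-γ output by T cells and natural killer cells, and decoy-resistant IL-18 is a variant that escapes the soluble inhibitor IL-18 binding protein.

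The libraries held between 31281944 and 35062545 reads in genes, with 20326 to 21358 genes detected. At this depth 2 CPM corresponds to 68.9 or 70.1 reads in the mixture libraries, and 0.5 CPM to between 15.6 and 17.5 reads in the others. The summed CPM of 7 genes of CD8 T cells (Cd3e, Cd3d, Cd8a, Cd8b1, Cd2, Lck and Cd28) was 2725 and 2737 in the mixture and between 3419 and 3838 elsewhere. Of the 7, Cd8a (779 and 761 CPM in the mixture, 728 and 711 with IL12) and Cd28 (326 and 325 in the mixture, 240 to 281 in Mock, NoEp and DRIL18, 683 and 680 with IL12) were not lowest in the mixture. In bulk RNA, fewer cells of a type and less RNA per cell cannot be told apart, nor can a few cells with many copies and many cells with few. Column names of both mixture libraries, both NoEp libraries, DRIL18 replicate 2 and IL12 replicate 2 carry the mark bis, which the labels do not explain. The ceiling of 0.5 CPM was therefore met by 4 libraries with the mark and 4 without it. Neither Mock library carries the mark. It thus goes with the group in the mixture against Mock and in Mock against NoEp, and cannot be told apart from treatment within them. Only within DRIL18 and IL12 does it differ between replicates.

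Summed over the 18 genes, the level was 110 and 113 CPM in the mixture (3852 and 3883 reads). It was 0.480 and 0.714 CPM in NoEp, 0.749 and 0.545 in Mock, 1.39 and 2.01 in DRIL18, and 1.34 and 1.42 in IL12. The gap between the mixture and the rest is set by the rule. The sums of DRIL18 and IL12 stood above those of Mock and NoEp without overlap, but not every gene followed. Loxl4 had 4 reads over both Mock libraries, 1 with DRIL18 and 1 with IL12, and Gm41386 had 9, 4 and 5. The sum is weighted to the genes with the highest CPM.

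**Figure D1:**
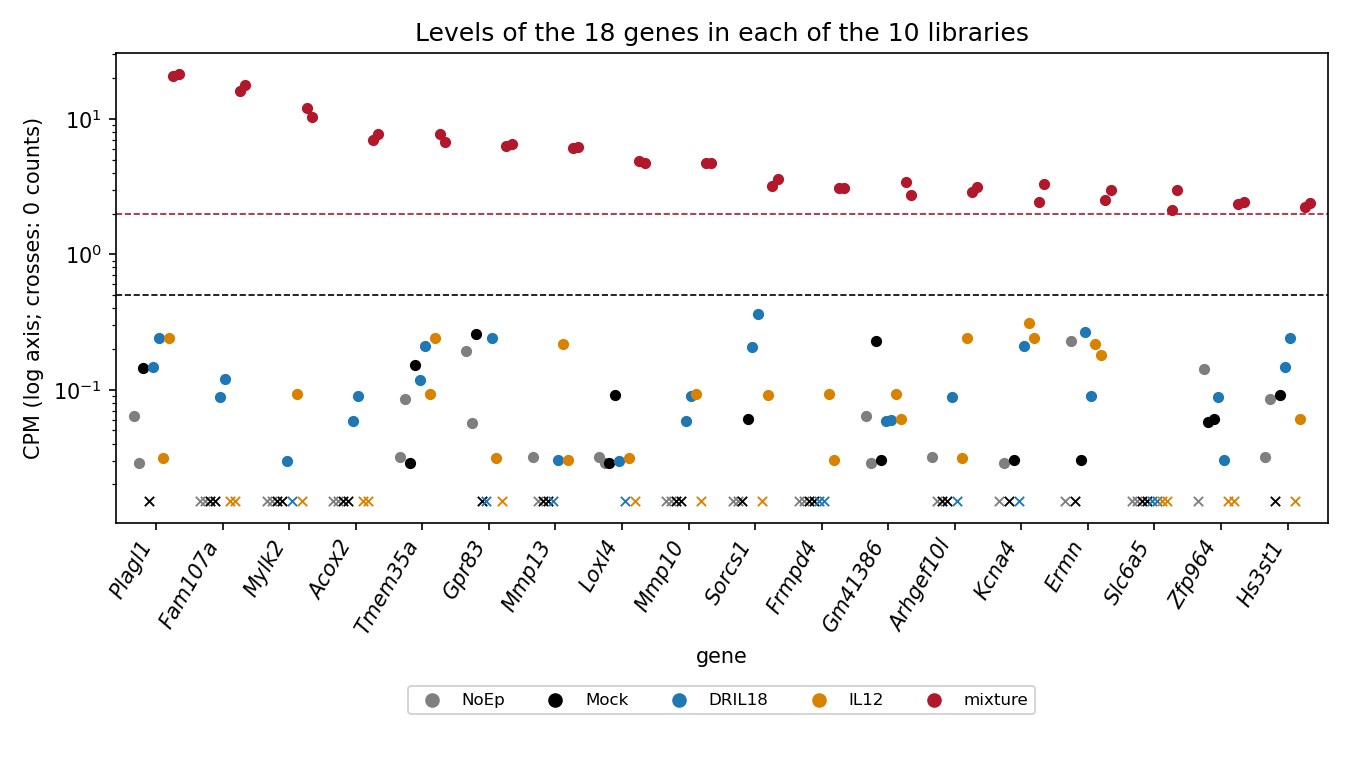
CPM of each of the 18 genes (horizontal axis) in each of the 10 libraries, on a logarithmic vertical axis, with colours for the groups, crosses for libraries with 0 counts and dashed lines at 2 and 0.5 CPM. The highest value outside the mixture is 0.360 CPM, for Sorcs1 in DRIL18 replicate 2.

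The genes were low rather than silent outside the mixture. Slc6a5 had 0 reads in all 8 other libraries, and the other 17 had at least 1 read in them. The sum over these 8 libraries ran from 0 to 34 reads per gene with a median of 13. Per group, the median gene had 1 read over both NoEp libraries, 1 over both Mock libraries, 5 over both DRIL18 libraries and 3 over both IL12 libraries, against 283 over both mixture libraries. The highest of the 8 values fell in an IL12 library for 8 genes, in DRIL18 for 5, in Mock for 3 and in NoEp for 1, while Slc6a5 has no highest value.

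The 2 mixture libraries gave like values. The ratio of mixture replicate 1 to replicate 2 ran from 0.715 (Slc6a5) to 1.25 (Gm41386) with a median of 0.970. In all, 5 genes were higher in replicate 1 and 13 in replicate 2. Mean levels were above 10 CPM for 3 genes, between 4 and 10 CPM for 6, and at 4 CPM or less for 9.

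Matrix enzymes that cells secrete made up 3 of the 18. Mmp13 encodes collagenase-3, which cleaves fibrillar collagen. It had 213 and 212 reads in the mixture (6.08 and 6.16 CPM), 7 and 1 with IL12, 0 and 1 with DRIL18, 0 in both Mock libraries and 1 and 0 in NoEp. Mmp10, which encodes stromelysin-2, a protease with broad matrix substrates, had 165 and 164 reads in the mixture (4.71 and 4.76 CPM), 2 and 3 with DRIL18, 3 and 0 with IL12, and 0 in the 4 Mock and NoEp libraries. Loxl4, a lysyl oxidase family member that helps to crosslink collagen and elastin, had 171 and 163 reads (4.88 and 4.73 CPM) and at most 3 reads in any other library. For all 3 the mixture libraries were close to each other, and no other library came near them.

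Surface receptors were Gpr83 and Sorcs1. Gpr83 encodes a G protein-coupled receptor known from the brain and from regulatory T cells. It was read 223 and 224 times in the mixture (6.36 and 6.51 CPM). Its reads elsewhere were 6 and 2 in NoEp, 9 and 0 in Mock, 0 and 8 with DRIL18, and 1 and 0 with IL12, so that IL12 had the fewest. Sorcs1 encodes a sorting receptor of the VPS10 family. It had 112 and 125 reads in the mixture (3.19 and 3.63 CPM), 7 and 12 with DRIL18, 0 and 3 with IL12, 0 and 2 in Mock and 0 in NoEp. The DRIL18 libraries were the highest outside the mixture and did not overlap the remaining 6.

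The channel gene Kcna4 and the transporter gene Slc6a5 were both near the lower limit of the mixture. Kcna4 encodes the voltage-gated potassium channel Kv1.4. It had 86 and 113 reads in the mixture (2.45 and 3.28 CPM), 10 and 8 with IL12, 0 and 7 with DRIL18, and 1 read at most in each Mock and NoEp library. IL12 was thus the second highest group, above all DRIL18, Mock and NoEp libraries. Slc6a5 encodes the glycine transporter GlyT2 of inhibitory neurons, with 75 and 103 reads (2.14 and 2.99 CPM). Against its 0 reads with IL12 and with DRIL18 the mixture was at least 55.6-fold and 57.3-fold higher, with 3 reads set in place of 0 in each group.

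Highest by CPM was Plagl1, an imprinted zinc finger transcription factor gene also called Zac1, at 20.71 and 21.35 CPM in the mixture (726 and 735 reads). It was not silent elsewhere, with 5 and 8 reads in DRIL18, 1 and 8 in IL12, 5 and 0 in Mock, and 2 and 1 in NoEp. The ratio of the mixture to DRIL18 was 109 (95% counting interval 63.2 to 204) and to IL12 152 (79.9 to 333). These intervals cover counting error only. Zfp964, another zinc finger protein gene, had 83 and 84 reads (2.37 and 2.44 CPM), 0 in both IL12 libraries and 5 at most elsewhere.

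Enzymes inside the cell were Acox2 and Hs3st1. Acox2 encodes the peroxisomal oxidase of branched-chain fatty acids and bile acid intermediates. It had 244 and 265 reads in the mixture (6.96 and 7.70 CPM), 2 and 3 with DRIL18, and 0 in the other 6 libraries. Against IL12, with 0 reads, the mixture was at least 159-fold higher. Hs3st1, which encodes a sulfotransferase that modifies heparan sulfate, had 78 and 83 reads (2.22 and 2.41 CPM), 5 and 8 with DRIL18, 0 and 2 with IL12, 0 and 3 in Mock and 1 and 3 in NoEp.

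Signalling genes were Mylk2 and Arhgef10l. Mylk2 encodes the myosin light chain kinase of skeletal muscle. It had 424 and 356 reads in the mixture (12.1 and 10.3 CPM), 3 and 0 with IL12, 1 and 0 with DRIL18, and 0 in the 4 Mock and NoEp libraries. Arhgef10l, which encodes a guanine nucleotide exchange factor, had 102 and 109 reads (2.91 and 3.17 CPM), 1 and 8 with IL12, 3 and 0 with DRIL18, 0 in both Mock libraries, and 1 and 0 in NoEp.

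Genes of the cytoskeleton or of protein trafficking made up 4. Fam107a encodes an actin-associated protein. It had 560 and 613 reads in the mixture (15.97 and 17.8 CPM), 3 and 4 with DRIL18, and 0 in the other 6 libraries, which puts the mixture at least 366-fold above IL12. Tmem35a, which encodes a chaperone of nicotinic acetylcholine receptors, had 272 and 231 reads (7.76 and 6.71 CPM) and between 1 and 8 reads in every other library. Ermn encodes ermin, a cytoskeletal protein of myelinating cells. It had 89 and 103 reads (2.54 and 2.99 CPM), 9 and 3 with DRIL18, 7 and 6 with IL12, 0 and 1 in Mock, and 0 and 8 in NoEp. Frmpd4, a scaffold gene of synapses, had 109 and 106 reads (3.11 and 3.08 CPM), 3 and 1 with IL12, and 0 in the other 6 libraries.

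The remaining gene, Gm41386, is a long intergenic noncoding RNA. It had 120 and 94 reads in the mixture (3.42 and 2.73 CPM), 8 and 1 in Mock, 2 and 2 with DRIL18, 3 and 2 with IL12, and 2 and 1 in NoEp. It and Tmem35a were the 2 genes with reads in every library.

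**Figure D2:**
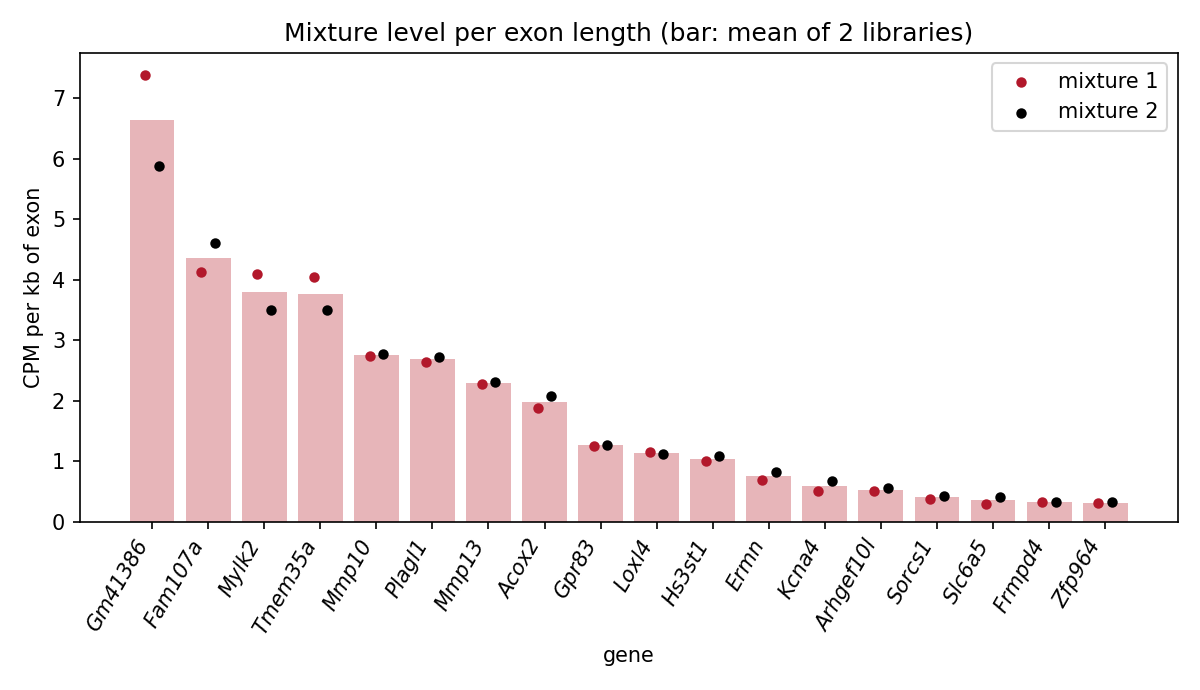
Level of each gene in the mixture in CPM per kb of exon (vertical axis), with bars for the mean of 2 libraries and points for each library. Gm41386 leads at 6.63 with an annotated length of 0.464 kb, followed by Fam107a at 4.36.

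Levels of different genes compare only per length. In CPM per kb of annotated exon, the mean of the mixture libraries ran from 0.316 for Zfp964 to 6.63 for Gm41386, whose annotated length of 0.464 kb is the shortest of the 18. Fam107a followed at 4.36 CPM per kb, Mylk2 at 3.80, Tmem35a at 3.77, Mmp10 at 2.75, Plagl1 at 2.69 and Mmp13 at 2.29. Mylk2 and Tmem35a overlapped between libraries (3.50 to 4.10 and 3.50 to 4.05), so their order was not resolved. Plagl1, first by CPM, was the sixth per length because its annotated exons span 7.82 kb.

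Outside the mixture, the reads of several genes lay unevenly between the groups. Kcna4 had 18 reads over both IL12 libraries, 7 with DRIL18, 1 in Mock and 1 in NoEp. Mmp13 had 8 with IL12 and at most 1 in each other group, and Arhgef10l had 9 with IL12, 3 with DRIL18, 0 in Mock and 1 in NoEp. These genes were thus read most with IL12, although 7 of the 8 Mmp13 reads and 8 of the 9 Arhgef10l reads came from 1 library each. Sorcs1 had 19 reads with DRIL18, 3 with IL12, 2 in Mock and 0 in NoEp. Fam107a (7 reads) and Acox2 (5 reads) were read with DRIL18 alone, in both of its libraries. Ermn was read alike with IL12 (13 reads) and DRIL18 (12 reads), against 1 in Mock and 8 in NoEp.

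The rule held each of these 8 libraries under 0.5 CPM, and the genes entered the fit across all genes through the mixture. Calls of that fit (edgeR quasi-likelihood test, adjusted over 15777 genes) are therefore given as counts only, and nothing is read from them. For IL12 against Mock, 4 of the 18 were called higher and 0 lower, beside 46.6% of all genes called (23.0% higher, 23.6% lower). For DRIL18 against Mock, 2 were called higher and 0 lower, beside 24.3% (12.2% higher, 12.1% lower). For IL12 against DRIL18, 0 were called higher and 3 lower, beside 39.5% (18.9% higher, 20.6% lower). For Mock against NoEp, edgeR called 0, beside 6.98% (3.34% higher, 3.64% lower). Of the 18, 0 had an unadjusted p under 0.05 there, and DESeq2 and limma-voom also called 0, although DESeq2 gave no adjusted p for 17. The counts moved with single libraries: to 1 without Mock replicate 1 and 2 without IL12 replicate 1 in the first comparison, to 1 without Mock replicate 1 or DRIL18 replicate 2 in the second, and to 1 without DRIL18 replicate 2 and 0 without IL12 replicate 1 in the third.

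**Figure D3:**
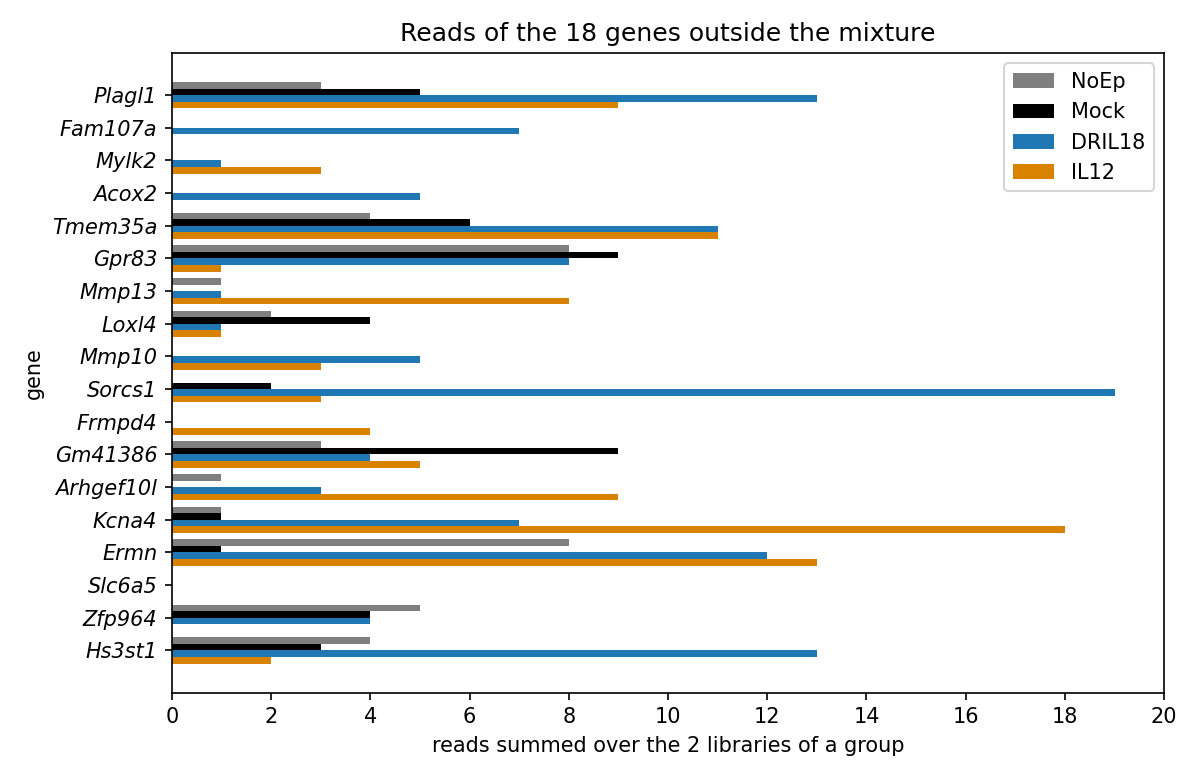
Reads of each gene summed over the 2 libraries of NoEp, Mock, DRIL18 and IL12 (horizontal axis, reads). Sorcs1 reaches 19 reads in DRIL18 and Kcna4 18 in IL12, while Slc6a5 has 0 in all 4 groups.

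The rule gave few genes in any other group. Applied to each group in turn, it found 24 genes for the mixture before symbols were considered, 3 for IL12 (Slc9a2, Tnfrsf11a and Wnk2) and 0 for DRIL18, Mock and NoEp. The reverse pattern, under 0.5 CPM in both libraries of a group and at or above 2 CPM in the other 8, was met by 8 genes in the mixture and by 0 in each other group. Of 75 genes on in the mixture and under 0.5 CPM in NoEp and Mock, 24 were under 0.5 CPM in IL12 and DRIL18 as well. Another 9 were on in IL12 with DRIL18 under 0.5 CPM, 1 was on in DRIL18 with IL12 under 0.5 CPM, 0 were on in both, and 41 lay between the limits in some library of a single mRNA.

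Genes lay close to each limit on both sides. Just inside the mixture limit, the lower of the 2 libraries was at 2.14 CPM for Slc6a5, 2.22 for Hs3st1 and 2.37 for Zfp964, and just outside it at 1.91 for Pdgfa, 1.89 for St18 and 1.80 for Ugt1a7c. Closest under the ceiling were Sorcs1 (0.360 CPM), Kcna4 (0.312) and Ermn (0.266). Just above the ceiling, among genes at least 4 times higher in the mixture, were Gm15987 (0.510 CPM in DRIL18 replicate 2, at least 8.04 in the mixture), Slc6a9 (0.575) and Epha2 (0.575). Without the ceiling, 33 genes at or above 2 CPM in the mixture stood at least 10-fold above the highest other library, and 14 of the 18 were among them. The 4 below that mark were Sorcs1 (8.86-fold), Kcna4 (7.87), Ermn (9.53) and Hs3st1 (9.26).

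**Figure D4:**
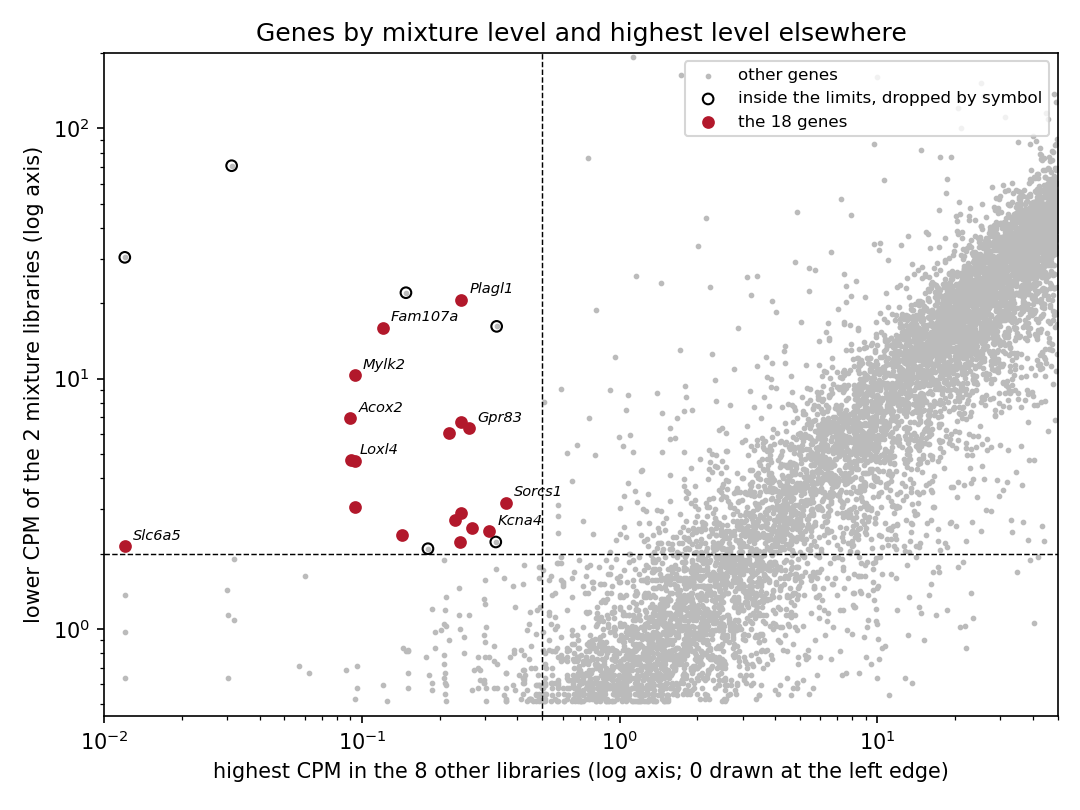
Each point is a gene, placed by its highest CPM in the 8 libraries outside the mixture (horizontal, logarithmic, 0 drawn at the left edge) and its lower CPM in the mixture (vertical, logarithmic), with dashed lines at 0.5 and 2 CPM. The 18 genes fill the upper left with the 6 dropped by symbol (open circles), and gray points lie close to both lines.

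Relatives of these genes, taken by gene family name after the values had been seen, mostly did not share the pattern. Of 74 relatives in 13 families, 49 were under 0.5 CPM in all 10 libraries and 27 could be tested for the mixture against Mock. Of these, 4 rose and 13 fell (edgeR quasi-likelihood test, adjusted over all genes), beside 63.9% of all genes called (32.0% higher, 31.9% lower). The other 10 did not pass. Among the rises, Mylk had few reads outside the mixture and entered the fit through the mixture alone. Among the falls, that of Fam107b was lost without Mock replicate 1 (edgeR adjusted p = 0.0717) and that of Plag1 without mixture replicate 1 (0.145).

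Among potassium channels, Kcna3, which encodes the main Kv1 channel of T cells, stood at 60.5 and 63.6 CPM in Mock, 52.5 and 53.4 with DRIL18, 37.1 and 40.7 with IL12, and 14.9 and 14.1 in the mixture. It fell by 2.03 ± 0.06 (SE) on the log2 scale against Mock (edgeR adjusted p = 1.48e-22). Kcna2 stood at 6.45 and 6.63 CPM in Mock and at 0.171 and 0.232 in the mixture, and fell by 4.94 ± 0.25 (edgeR adjusted p = 4.18e-17). Both were lowest where Kcna4 was on, with no overlap between the mixture and any other library.

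Among SLC6 transporters, Slc6a9, which encodes the other glycine transporter GlyT1, rose with the mixture by 3.99 ± 0.41 (edgeR adjusted p = 6.54e-10). It stood at 3.14 and 3.72 CPM there, 0.468 and 0.575 with IL12, 0.414 and 0.510 with DRIL18, and 0.288 and 0.152 in Mock, and so missed the ceiling by little. Slc6a19, a transporter gene of neutral amino acids, fell from 55.2 and 55.6 CPM in Mock to 4.51 and 4.44 (log2 fold change -3.57 ± 0.08, edgeR adjusted p = 8.60e-27).

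Of the VPS10 receptors, Sort1 rose by 2.67 ± 0.41 (0.432 and 0.242 CPM in Mock, 1.94 and 2.24 in the mixture; edgeR adjusted p = 1.22e-06), while Sorl1 fell from 184 and 190 CPM to 32.5 and 33.5 (-2.44 ± 0.05, edgeR adjusted p = 4.03e-28). Mylk, the smooth muscle relative of Mylk2, was at 0.713 and 0.958 CPM in the mixture and at most 0.0959 elsewhere. It entered the fit through the mixture alone, so its call as higher is counted and nothing further is read from it. Plagl2 rose from 89.0 and 90.4 to 159 and 164 CPM (0.91 ± 0.04, edgeR adjusted p = 4.75e-18). Among acyl-CoA oxidases, Acox3 (-0.83, edgeR adjusted p = 1.21e-13) and Acoxl (-3.15, edgeR adjusted p = 1.34e-10) fell.

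Of 21 other matrix metalloproteinase genes, 16 were under 0.5 CPM in all libraries, 3 fell and 0 rose. Mmp15 fell by 2.11 ± 0.28 (2.56 and 2.64 CPM in Mock, 0.542 and 0.610 in the mixture; edgeR adjusted p = 9.84e-08) and Mmp17 by 1.60 ± 0.31 (edgeR adjusted p = 3.58e-05). Mmp25, at 0.202 and 0.576 CPM in Mock and 1 read in each mixture library, was the third (edgeR adjusted p = 0.0012), a call lost without Mock replicate 2 (edgeR adjusted p = 0.0668). No relative of Loxl4 passed: Lox and Loxl1 had 0 reads in all 10 libraries, Loxl2 was at most 0.232 CPM, and Loxl3 did not pass.

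**Figure D5:**
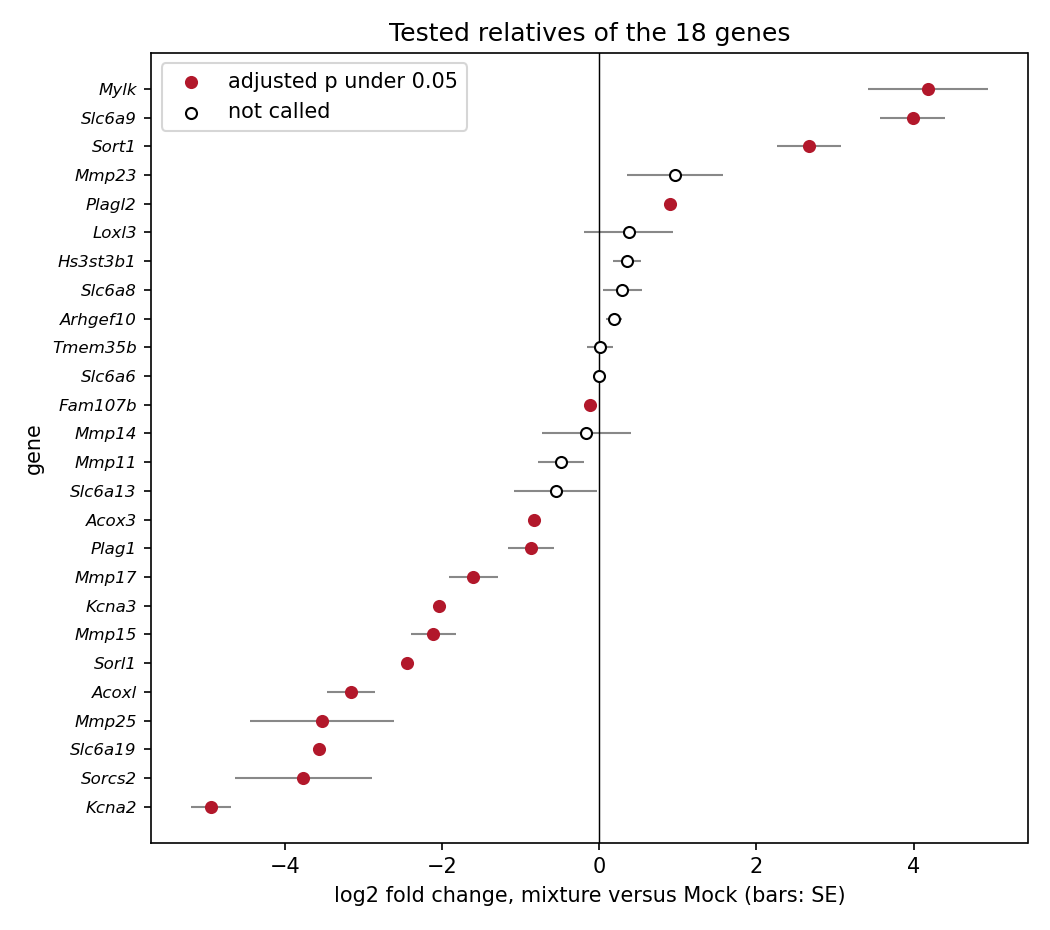
Change with the mixture relative to Mock (horizontal axis, log2 fold, bars: SE) for the tested relatives of the 18 genes except 1 that is not reported here, with filled points where the adjusted p is under 0.05. Mylk (in the fit through the mixture alone), Slc6a9, Sort1 and Plagl2 rose, and Kcna2 fell furthest at -4.94.

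The 18 genes lay on 11 chromosomes, with at most 3 on any, so they were not a single gene cluster. Fam107a and Acox2 are direct neighbours on chromosome 14 and are read in the same direction. They also had the same profile, with reads outside the mixture in the DRIL18 libraries only. Mmp13 and Mmp10 lie in the metalloproteinase cluster of chromosome 9, and their neighbours there were not on: Mmp3 had 0 reads outside the mixture and at most 0.0285 CPM in it, Mmp8 was at most 0.0871 CPM and Mmp12 at most 0.290 CPM in any library.

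Over all 18, the nearest protein-coding gene on each side gave 34 neighbours that are not members, 21 of them testable. Of these, 15 were called in the mixture against Mock (10 higher, 5 lower; edgeR), or 71.4%, beside 72.1% of all tested protein-coding genes. Their median log2 fold change was 0.30, against 0.01 for all of those. Prickle1, a planar cell polarity gene next to the noncoding Gm41386 on the same strand, moved most upward. It stood at 3.20 and 2.73 CPM in Mock, 2.40 and 2.19 with DRIL18, 0.873 and 0.847 with IL12, and 21.5 and 23.8 in the mixture (2.99 ± 0.13, edgeR adjusted p = 1.06e-18). Pyroxd2, next to Loxl4, fell from 0.346 and 0.636 CPM in Mock to 1 read in total in the mixture (edgeR adjusted p = 0.000113).

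Overlapping genes held almost no reads. Within the bodies of the 18, other annotated genes with any read were Gm26629 (Sorcs1), Gm15238 (Frmpd4) and Galnt5 (Ermn), each with 1 read over all 10 libraries. The library kit marks strand, and the labels used here do not state the strand setting of the counting.

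Promoter windows were available from RefSeq (GRCm38.p6) for 17 of the 18, all but Mylk2, as 25 windows around start sites. They were searched on both strands for sites of factors downstream of the receptors. AP-1 (TGANTCA) was found for 5 of 17 genes (29.4%; Acox2, Arhgef10l, Mmp10, Mmp13 and Slc6a5), against 8.97% of 27025 genes. The NF-κB consensus was found for 3 (17.6%; Acox2, Fam107a and Loxl4), against 5.14%. The STAT site GAS (TTCNNNGAA) was found for 0 of 17, against 9.55%, and the cyclic AMP response site (TGACGTCA) for 0, against 2.03%. The interferon site ISRE was found for Mmp13 alone (5.88%, against 3.99%) and the T-box site (AGGTGNGA) for Tmem35a alone (5.88%, against 6.17%). By window, AP-1 stood in 7 of 25, against 7.81% of all windows, and NF-κB in 4 of 25, against 4.50%. Windows of the same gene can overlap, so the windows of Arhgef10l, Acox2 and Fam107a count the same site more than once. More windows per gene were searched for the 17 (25 windows) than for all 27025 genes (32851 windows), which raises the share by gene. Matches are descriptions of letters and were not tested for binding.

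The windows below belong to the paired metalloproteinases, to the neighbours Acox2 and Fam107a, and to Loxl4. They are shown 5′ to 3′ along the gene and were picked because they hold AP-1 or NF-κB matches. Not shown are the matching windows of Arhgef10l and Slc6a5, another matching window of Acox2, a Fam107a window without a match, and genes with neither site. Capitals mark the matches: AP-1 at -35 and ISRE at -146 from the start site in Mmp13, AP-1 at -63 in Mmp10, AP-1 at -11 and NF-κB at -145 in Acox2, NF-κB at -247 in Fam107a, and NF-κB at -143 in Loxl4.
Mmp13, chr9:7272264-7272563, plus strand: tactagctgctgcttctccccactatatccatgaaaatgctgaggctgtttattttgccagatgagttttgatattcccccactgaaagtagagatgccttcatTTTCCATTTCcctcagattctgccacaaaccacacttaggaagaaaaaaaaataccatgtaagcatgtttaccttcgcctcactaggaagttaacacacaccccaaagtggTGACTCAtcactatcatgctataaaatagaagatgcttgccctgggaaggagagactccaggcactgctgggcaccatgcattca
Mmp10, chr9:7502092-7502391, plus strand: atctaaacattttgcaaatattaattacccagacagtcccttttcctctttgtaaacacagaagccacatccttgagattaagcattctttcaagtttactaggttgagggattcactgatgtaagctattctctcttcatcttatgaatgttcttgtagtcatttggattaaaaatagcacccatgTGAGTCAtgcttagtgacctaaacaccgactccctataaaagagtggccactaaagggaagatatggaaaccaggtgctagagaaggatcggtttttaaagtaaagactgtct
Acox2, chr14:8258970-8259269, minus strand: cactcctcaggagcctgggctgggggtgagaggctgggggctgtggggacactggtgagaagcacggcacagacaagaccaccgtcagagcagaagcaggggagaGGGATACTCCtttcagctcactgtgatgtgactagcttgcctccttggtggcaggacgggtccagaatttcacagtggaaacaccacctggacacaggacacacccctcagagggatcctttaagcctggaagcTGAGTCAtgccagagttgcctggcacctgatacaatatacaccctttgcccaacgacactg
Fam107a, chr14:8309730-8310029, minus strand: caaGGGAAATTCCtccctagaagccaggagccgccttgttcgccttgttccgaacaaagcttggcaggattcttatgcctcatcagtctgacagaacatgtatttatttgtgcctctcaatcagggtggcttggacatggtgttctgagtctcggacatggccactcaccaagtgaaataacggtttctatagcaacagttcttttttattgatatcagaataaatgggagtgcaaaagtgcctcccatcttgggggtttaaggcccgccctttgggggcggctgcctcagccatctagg
Loxl4, chr19:42612757-42613056, minus strand: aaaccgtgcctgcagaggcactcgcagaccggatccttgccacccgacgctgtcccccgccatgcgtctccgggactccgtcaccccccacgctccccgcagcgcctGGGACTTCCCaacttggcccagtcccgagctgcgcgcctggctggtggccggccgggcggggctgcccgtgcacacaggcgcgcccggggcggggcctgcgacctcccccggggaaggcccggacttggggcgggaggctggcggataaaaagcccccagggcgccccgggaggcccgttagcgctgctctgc

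Genes of the signalling routes themselves changed broadly. Of 39 listed genes of IL-12 and IL-18 signalling, 27 rose and 9 fell with the mixture against Mock, with a median log2 fold change of 0.87 (all genes -0.0021; 32.0% higher and 31.9% lower among all genes). With IL12 22 rose and 9 fell (23.0% and 23.6% among all genes), and with DRIL18 19 rose and 9 fell (12.2% and 12.1%). Il1rl2, counted among the 27 rises with the mixture (1.87 ± 0.18), encodes another receptor of the IL-1 family, not one of IL-12 or IL-18. In the mixture the largest rises were of Ifng (12.92 ± 0.08), the p38 activator gene Gadd45g (3.35 ± 0.06), the NF-κB cofactor gene Nfkbiz (2.93 ± 0.06) and the receptor gene Il18r1 (2.92 ± 0.04). The largest falls were of the p38 pathway genes Map2k6 (-2.13 ± 0.17), Mapk14 (-0.75) and Map3k4 (-0.75) and of the NF-κB kinase gene Ikbkb (-0.74). Of the genes with the largest rises, Il18r1 rose more with IL12 alone (3.51) and Gadd45g nearly as much (3.10). Ifng (7.42) and Nfkbiz (1.08) rose less with IL12. With DRIL18 alone Ifng (3.90) and Nfkbiz (0.85) rose less than in the mixture, and Il18r1 (-0.87) and Gadd45g (-0.24) fell. The AP-1 genes Jun (3.19) and Fos (2.98) rose more with IL12 alone than in the mixture. Junb (1.55), Batf (0.29) and Batf3 (0.69) rose less with IL12. With DRIL18 alone Jun fell (-0.38), and Junb (0.32), Batf (0.42) and Batf3 (1.95) rose less than in the mixture. In the mixture Junb (2.16), Jun (2.28), Batf (1.72) and Batf3 (2.63) rose. Fos rose by 1.04 (edgeR adjusted p = 0.0326), a call lost without Mock replicate 1 (0.0709), Mock replicate 2 (0.132) or mixture replicate 1 (0.134), by DESeq2 (adjusted p = 0.0532) and by limma-voom (adjusted p = 0.0509).

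Several of the 18 are better known from neurons, muscle or connective tissue than from T cells, so lists of other cell types were read beside them. No muscle list was among them. Of 13 marker lists, 2 were higher in the mixture than in all other libraries, 2 were lower and 9 were not separated. The 5 neuronal markers summed to 0.0856 and 0.116 CPM in the mixture and at most 0.0601 elsewhere, and 3 of them (Rbfox3, Syt1 and Stmn2) had 0 reads in all 10 libraries. Since 1 read is 0.0285 and 0.0290 CPM in the mixture libraries, this difference rests on very few reads. The 4 erythroid markers summed to 0.428 and 0.697 CPM in the mixture and between 0.156 and 0.343 elsewhere, mostly from Alas2, with the globin genes Hbb-bs and Hba-a1 at 0 in the mixture. Fibroblast markers (Col1a1, Col1a2, Col3a1, Pdgfra, Pdgfrb and Dcn) summed to between 0.232 and 0.428 CPM in the mixture, within the range of 0.151 to 0.818 elsewhere. Epithelial markers were lower (0.697 and 0.770 CPM, against 4.68 to 14.8), as was the CD8 T cell list. Their part in the levels of the 18 genes was not tested.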

How the data were processed

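Whole-number counts per gene and log2 CPM values were used as the authors deposited them. The submitters' processing notes name STAR 2.7.9, featureCounts, edgeR, limma and the build mm39, without saying what each step did. The labels state neither the annotation release nor the strand setting. All 18 genes stand in the deposited log2 table of 13225 genes, at log2 CPM of 1.14 to 4.45 in the mixture and at most -1.44 elsewhere.

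CPM for the selection used column sums of all reads in genes. Columns were matched to samples by group and replicate number, with NE read as not electroporated. Symbols came from a GENCODE M21 table, which matched 52083 of 55359 identifiers. Exon lengths, gene order and overlaps came from GENCODE M21 on GRCm38, which differs from the build counted on, so no coordinates are given except those of the RefSeq promoter windows on GRCm38.p6.

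Tests used edgeR 4.0.16 in R 4.3.3 (quasi-likelihood F test, TMM, filterByExpr, 5 group means over 10 libraries, 5 residual degrees of freedom, 15777 genes, Benjamini-Hochberg over all of them, called under 0.05). DESeq2 1.42.0, limma-voom (limma 3.58.1), DESeq2 size factors, no filter, a replicate block, the mark bis as a covariate and leaving out each library were alternatives. Log2 fold changes of genes with 0 reads in a group depend on the prior count, so reads, ratios with exact 95% counting intervals, or bounds with 3 reads in place of 0 are given. On simulated counts for IL12 against Mock over 15044 genes, 52% of 1.2-fold and 90% of 1.5-fold changes were found among 50 genes each. For 2-fold changes it was 98%, and for 4-fold changes 100%. The genes of these fold classes were drawn only from those with more than 50 expected reads. At very low counts, 0 of 50 rises from 1 read to 4 reads were found, and 19 of 50 (38%) from 1 read to 8 reads. Of 195 calls in all, 6 fell on genes that had not been changed. Far fewer genes were changed there than were called in the real comparison (46.6%), so the rates may differ in these data. The chosen genes had few reads outside the mixture, so those not called there may still have changed.

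The genes and lists were chosen with earlier results of these data known. Within the 18, all are named; role groups were assigned after the genes were known. Named genes outside them are the 3 nearest each limit, up to 4 signalling genes in each direction, and relatives and neighbours chosen after seeing the data, as were the AP-1 genes. The values of 1 relative are not reported here, although it is included in the counts of relatives.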

Additional observations from a re-analysis of the deposited data

How the results depend on the processing

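The number of genes chosen was 47 with a mixture limit of 1 CPM, 7 with 5 CPM, 37 with a ceiling of 1 CPM and 30 where group means had to pass, against 18. With a ceiling of 0.25 CPM it was 14, and with TMM-scaled CPM the same 18. Leaving out 1 library gave between 18 and 22 genes, and could not give fewer, since it removes a condition. Counts of the 18 called rested on few reads, and the genes called differed between settings, so only counts are given. IL12 against Mock gave 4, with 2 by DESeq2, 4 by limma-voom, 5 without a filter and 6 with the mark bis as a covariate. DRIL18 against Mock gave 2, with 2 by DESeq2, 2 by limma-voom, 3 without a filter and 1 with the mark bis. DESeq2 gave no adjusted p there for 8 of the 18. IL12 against DRIL18 gave 3, with 2 by DESeq2, 3 by limma-voom, 4 without a filter and 2 with the mark bis. The counts also moved where 1 library was left out. Over all genes, DRIL18 against Mock called between 2525 (without Mock replicate 2) and 4125 when 1 library was left out, against 3832. Mock against NoEp called 172 with the mark bis as a covariate and between 242 (without Mock replicate 1) and 1399 when 1 library was left out, against 1102. Both NoEp libraries and neither Mock library carry the mark, so within this comparison it cannot be told apart from electroporation. The covariate rests on DRIL18 and IL12, where the mark differs between replicates. The causes of these shifts were not tested, and leaving out a library also leaves fewer samples. Same-numbered libraries did not deviate together (correlations between -0.0318 and 0.0493), and a replicate block left the counts of the 18 called at 4, 2, 3 and 0, with 7316, 3814, 6210 and 1103 genes called in all. The signalling, relative and neighbour counts, for which alternatives were added after seeing the data, stayed at 34 to 36, 15 to 17 and 14 to 16 for the mixture against Mock. Of 1232 single-gene values under an alternative, 1176 kept the call, 56 lost it and 0 reversed. This total pools calls of the 18 with the more numerous calls of signalling genes, relatives and neighbours in the mixture against Mock. Most of the 56 losses were of calls of the 18, which were therefore much less stable than the total shows.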
